A study of Mus musculus with 80 samples.

Results

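The G2/M phase genes described here are 36 genes whose products carry a cell from the end of DNA replication through mitosis. They were chosen by their mouse gene symbols, with earlier results of these data known. All 36 were found as Ensembl rows in both deposited gene tables, among 41388 genes in the first and 40481 in the second. They were followed in 2 mouse cell populations, the hematopoietic stem cell (HSC) and the hematopoietic progenitor cell (HPC), over age and over Ifnar and Flt3 genotypes. HSC renew themselves and give rise to every blood lineage, and HPC are their more limited descendants. All mice had the B6 background, and RNA was sequenced from 80 libraries in 20 groups.

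HSC were sampled at E14 (3 libraries), E16 (4), E18 (3), P0 (4), P7 (4), P14 (4) and in 8 week old adults (4), and HPC at E16 (3), P0 (4), P7 (4), P14 (5) and in adults (4). E stands for the embryonic day, named here by its whole number, and P for the postnatal day. The labels give no genotype for these 46 age libraries. The genotype libraries came from Ifnar -/- mice at P0 (4 HSC and 4 HPC libraries), set against wild type mice (5 HSC and 4 HPC libraries). At P14 they came from HPC that were Ifnar -/-, Flt3 ITD/+ (5 libraries), Ifnar -/-, Flt3 +/+ (4), Ifnar +/-, Flt3 ITD/+ (4) or Ifnar +/-, Flt3 +/+ (4), so the P14 controls carried 1 disrupted Ifnar allele too. Ifnar encodes the type I interferon receptor, and Flt3 ITD is an activating internal tandem duplication found in leukemia. The labels do not say which Ifnar exon was deleted, how the cells were sorted, from which organ, or whether libraries came from separate animals. The p-values below therefore measure the spread between these libraries only.

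Cells at the G2/M border need active cyclin B and CDK1, which Cdc25 phosphatases switch on and which Plk1 and the Aurora kinases amplify. Kinetochore proteins then attach chromosomes to the spindle, the checkpoint kinases Bub1, Bub1b and Ttk hold anaphase until all are attached, and Cdc20 and Ube2c direct the anaphase-promoting complex to destroy cyclin B and securin (Pttg1). These transcripts accumulate in cycling cells and are low in resting ones, so their level in a bulk sample follows the share of dividing cells. Fetal HSC are known to divide often and adult HSC to rest most of the time. In these bulk libraries, fewer dividing cells and less of each transcript per dividing cell cannot be told apart.

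Many promoters of the class carry a CCAAT box, bound by NF-Y, and a cell cycle homology element, through which the MuvB complex acts. RefSeq promoters (GRCm38.p6, 250 bases before to 50 after the start) were found for 31 of the 36 genes, as 33 promoters. The letters TTTGAA were searched on both strands and stood in 22 of the 33 promoters (66.7%), against 17.9% of all 32851 promoters. The variant TTCGAA was in 3 (9.09%), against 1.56% of all. CCAAT, also on both strands, was in 24 (72.7%), against 37.4%, and 18 (54.5%) held both TTTGAA and CCAAT, against 6.95%. Overlapping matches were allowed. Below are the 150 bases before the start, 5′ to 3′ on the gene's own strand, for 5 genes with such matches and for Pttg1, whose level later ran against the rest. Capitals mark TTTGAA or its reverse complement TTCAAA, and CCAAT or its reverse complement ATTGG.
Cdk1 (chr10:69352913-69353062, minus strand): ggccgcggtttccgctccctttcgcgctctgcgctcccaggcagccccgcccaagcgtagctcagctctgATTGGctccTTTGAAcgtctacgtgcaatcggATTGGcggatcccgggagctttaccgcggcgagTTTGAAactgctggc
Cdc20 (chr4:118437344-118437493, minus strand): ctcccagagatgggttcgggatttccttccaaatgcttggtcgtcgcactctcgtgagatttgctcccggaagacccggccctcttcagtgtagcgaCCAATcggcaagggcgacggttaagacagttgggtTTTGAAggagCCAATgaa
Ube2c (chr2:164769779-164769928, plus strand): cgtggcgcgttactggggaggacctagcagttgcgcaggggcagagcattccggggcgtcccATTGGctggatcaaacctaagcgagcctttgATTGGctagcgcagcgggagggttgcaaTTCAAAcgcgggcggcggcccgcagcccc
Kif11 (chr19:37376232-37376381, plus strand): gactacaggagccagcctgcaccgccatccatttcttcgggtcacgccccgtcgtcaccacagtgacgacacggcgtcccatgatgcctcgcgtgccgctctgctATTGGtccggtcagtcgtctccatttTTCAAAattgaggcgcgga
Mki67 (chr7:135716380-135716529, minus strand): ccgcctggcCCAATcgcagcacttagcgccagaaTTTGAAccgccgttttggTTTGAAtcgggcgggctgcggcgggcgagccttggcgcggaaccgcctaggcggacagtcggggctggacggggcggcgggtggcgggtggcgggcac
Pttg1 (chr11:43425982-43426131, minus strand): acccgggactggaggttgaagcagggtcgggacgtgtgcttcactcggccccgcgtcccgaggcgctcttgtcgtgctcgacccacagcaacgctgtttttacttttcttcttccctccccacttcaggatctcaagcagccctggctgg
The Pttg1 window held no match to these letters. The promoters of Birc5, Nusap1, Nuf2 and Tacc3 held none either, and these genes were lower in adult than in E16 HSC and HPC. The median log2 fold change between adult and E16 HSC was -1.00 for the 21 genes with TTTGAA and -0.95 for the 10 without. Between adult and E16 HPC it was -0.90 and -0.91. The medians parted at P14, at 0.37 and -0.07 for Ifnar -/- over Ifnar +/- HPC in Flt3 +/+ mice. For Flt3 ITD/+ over Flt3 +/+ HPC in Ifnar +/- mice, which shares libraries with it, they were 0.33 and -0.11. These differences were not tested.

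All 36 genes were detected in every library, with at least 102 reads. Depth was 6950197 to 24033675 reads counted to genes in HSC age libraries, 7910900 to 25382447 in HPC age libraries, 37039400 to 46302596 in P0 HSC, 11683086 to 14719608 in P0 HPC and 58400350 to 92099541 in the P14 genotype libraries. Values are RPKM, reads scaled by exon length in kilobases and by library size. The summed RPKM of 5 HSC markers (Procr, Slamf1, Mecom, Hlf, Fgd5) was 135 to 248 in the 35 HSC libraries and 31.3 to 126 in the 45 HPC libraries. That of 4 progenitor markers (Cd48, Cd34, Flt3, Mpo) was 146 to 436 in HSC libraries and 598 to 5360 in HPC libraries. Ifnar1, which encodes 1 chain of the receptor, was not lower at P0 in libraries labelled Ifnar -/-: it was 9.88 to 11.9 RPKM in P0 Ifnar -/- HSC, against 8.69 to 12.7 RPKM in wild type HSC, and 13.3 to 15 RPKM in P0 Ifnar -/- HPC, against 9.16 to 13.5 RPKM in wild type HPC. In P14 Flt3 +/+ HPC it was 9.15 to 10.5 RPKM in Ifnar -/- and 2.86 to 8.77 RPKM in Ifnar +/- libraries, with no overlap, and in P14 Flt3 ITD/+ HPC 7.20 to 9.15 RPKM in Ifnar -/- and 7.58 to 9.83 RPKM in Ifnar +/- libraries, which overlap. Ifnar2, the other chain, overlapped between the Ifnar genotypes in all 4 settings; the P14 Flt3 ITD/+ libraries had 4.09 to 10.4 RPKM in Ifnar -/- and 8.60 to 11.8 RPKM in Ifnar +/- HPC. A count over the whole gene does not show which exons were read, so it does not check these labels, and the same holds for the Flt3 duplication.

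In HSC, the G2/M genes were about as high at E14 as at E16, lower from E18 on, and lowest at P14 for 25 of the 36 genes. The sum of their RPKM averaged 1576 ± 54.0 at E14, 1569 ± 49.5 at E16, 933 ± 32.5 at E18, 928 ± 134 at P0, 1069 ± 100 at P7, 666 ± 101 at P14 and 765 ± 107 in adults (SD over 3 or 4 libraries). Of the 36 genes, 32 were lower in adult than in E16 HSC and 1 was higher. The median log2 fold change of the members was -1.00, against 0.03 for all genes tested. In the same comparison 24.5% of all 13375 genes tested were called, 12% as lower and 12.5% as higher. A gene is called here when its Benjamini-Hochberg adjusted p, from limma on log2(RPKM + 0.5) for HSC ages or from edgeR's quasi-likelihood test on counts for HPC and genotypes, is under 0.05. Errors after log2 fold changes are standard errors. Of 81 other G2/M genes, 51 were lower and 2 higher in adult HSC (median -0.85), and of 33 S phase genes 21 were lower and 1 higher (median -0.55).

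**Figure D1:**
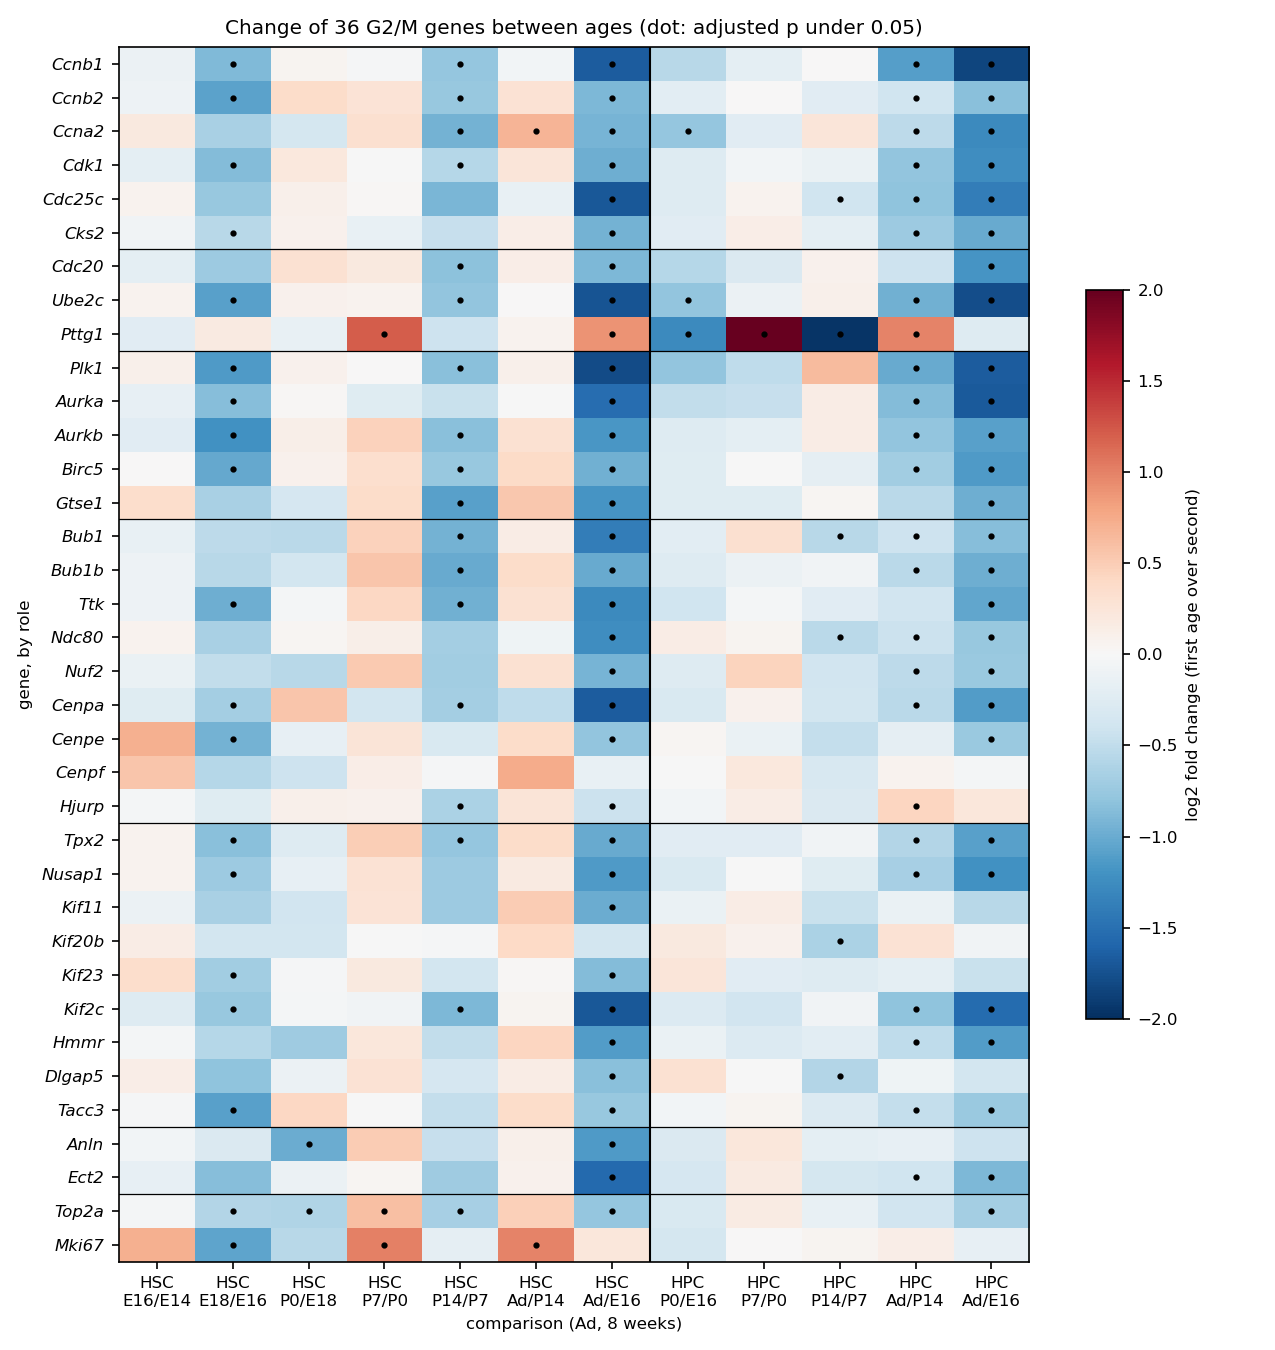
Log2 fold change of each of the 36 genes (rows, grouped by role) in the 12 age comparisons (columns, HSC left and HPC right); colour gives the size and a dot marks a call. Adult over E16 is negative for 34 of 36 genes in HSC and for 35 of 36 in HPC.

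In the cyclin and CDK group, all 6 genes were lower in adult HSC. Ccnb1, cyclin B1, measured 7.36, 10.9, 16.1 and 13.1 RPKM in the 4 adult HSC libraries, against 36.3, 39.5, 39.1 and 36.2 RPKM at E16. Cdk1, the kinase that starts mitosis, measured 40.0, 48.4, 43.7 and 39.1 RPKM in adult HSC, against 87.1, 84.4, 85.8 and 83.1 RPKM at E16. For both genes every adult library lay below every E16 library. The log2 fold change was -1.67 ± 0.18 for Ccnb1 (limma, adjusted p = 6.61e-08) and -0.98 ± 0.13 for Cdk1 (limma, adjusted p = 2.53e-06). Ccnb2, Ccna2, the CDK-binding protein Cks2 and the phosphatase Cdc25c fell by 0.90 to 1.69 on the log2 scale.

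The anaphase-promoting complex group split. Ube2c, the ubiquitin-conjugating enzyme of that complex, measured 22.2, 26.9, 22.4 and 23.9 RPKM in adult HSC, against 94.7, 78.8, 84.2 and 67.7 RPKM at E16. Its log2 fold change, -1.73 ± 0.15, had the smallest adjusted p among the members (limma, 1.51e-09). Cdc20, its activator, fell by 0.90 ± 0.21. Pttg1, the securin that this complex destroys, was the only member called higher. It measured 64.9, 53.0, 45.7 and 46.9 RPKM in adult HSC, against 34.6, 24.1, 28.8 and 25.1 RPKM at E16, with no overlap and a log2 fold change of 0.90 ± 0.17 (limma, adjusted p = 0.000213).

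All 5 genes of the mitotic kinase group, which also holds Birc5 and Gtse1 although they are not kinases, were lower in adult HSC. Plk1, a kinase needed for mitotic entry and spindle assembly, measured 15.3, 31.4, 32.0 and 31.1 RPKM in adults, against 84.1, 84.7, 106 and 96.4 RPKM at E16. It had the lowest log2 fold change of the members, -1.78 ± 0.19. Aurkb, the kinase of the chromosomal passenger complex, measured 28.1, 34.2, 40.2 and 33.0 RPKM in adults, against 74.0, 72.3, 88.0 and 72.6 RPKM at E16. Its partner Birc5 (survivin) measured 31.2, 28.9, 28.6 and 25.7 RPKM in adults, against 58.6, 59.1, 61.3 and 47.5 RPKM at E16. The adult and E16 ranges did not overlap for any of these 3 genes. Aurka and Gtse1 fell by 1.52 and 1.18 on the log2 scale.

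Of the 9 checkpoint and kinetochore genes, 8 were lower in adult HSC. Bub1, a checkpoint kinase, measured 4.29, 7.33, 12.1 and 9.77 RPKM in adults, against 19.1, 23.0, 21.4 and 22.8 RPKM at E16, a log2 fold change of -1.39 ± 0.22 (limma, adjusted p = 2.56e-05). Cenpa, the centromeric histone H3 variant, fell by 1.67 ± 0.16 (limma, adjusted p = 9.09e-09), and its loading factor Hjurp by 0.42 ± 0.15 (limma, adjusted p = 0.0415). Cenpf, a large kinetochore protein, did not pass: it measured 3.95, 4.62, 4.80 and 3.31 RPKM in adults and 3.14, 6.03, 6.05 and 4.01 RPKM at E16, which overlap. Bub1b, Ttk, Ndc80, Nuf2 and the kinetochore motor Cenpe fell by 0.79 to 1.27.

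Of the 9 spindle and motor genes, 8 were lower in adult HSC. Kif11, the motor that pushes spindle poles apart, measured 7.94, 9.77, 14.8 and 8.75 RPKM in adults, against 24.9, 21, 19.6 and 17.7 RPKM at E16. Tpx2, Nusap1, Kif23, Kif2c, Hmmr, Dlgap5 and Tacc3 fell by 0.76 to 1.70, with Kif2c lowest, and Kif20b had -0.36 ± 0.21 (limma, adjusted p = 0.229). Both cytokinesis genes were lower: Ect2, which activates RhoA at the cleavage site, measured 4.69, 9.32, 11.1 and 9.75 RPKM in adults, against 22.8, 25.9, 28.8 and 25.4 RPKM at E16, and Anln fell by 1.13. Neither Kif11 nor Ect2 overlapped between the ages. Top2a, which untangles chromosomes, measured 36.9, 49.7, 70.8 and 53.8 RPKM in adults, against 88.5, 97.2, 89.7 and 82.0 RPKM at E16, a log2 fold change of -0.78 ± 0.15 (limma, adjusted p = 0.000356). Mki67, the proliferation antigen Ki-67, did not fall with it: it measured 10.5, 8.41, 10.6 and 5.72 RPKM in adults and 6.81, 9.64, 8.20 and 5.36 RPKM at E16, which overlap (log2 fold change 0.22 ± 0.27, limma, adjusted p = 0.604).

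Of the genes outside the 36, Bora, which activates Plk1, fell by 1.80 ± 0.16 in adult HSC (limma, adjusted p = 2.00e-09), and Cks1b, Cenpk and Spc25 fell by 0.93 to 1.07. Foxm1 and Mybl2, transcription factors of the G2/M class, had log2 fold changes of -0.40 ± 0.29 and -0.32 ± 0.33 and did not pass. The summed RPKM of the 4 progenitor markers was also lower, 146 to 200 in adult HSC against 328 to 436 at E16, with 4 of the 4 markers lower; Flt3 and Cd34 are known to be low in resting adult HSC. The sum of 7 macrophage markers was 52.3 to 92.6 in adult HSC and 43.9 to 67.2 at E16, with 4 of 7 higher and 1 lower. More than 100 reads of Y-linked genes were found in 0 of the 4 adult HSC libraries and in 4 of the 4 at E16. The letters that open the library titles also differ between embryonic and adult libraries, so they and age cannot be told apart; the part of markers and sex in the result was not tested.

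**Figure D2:**
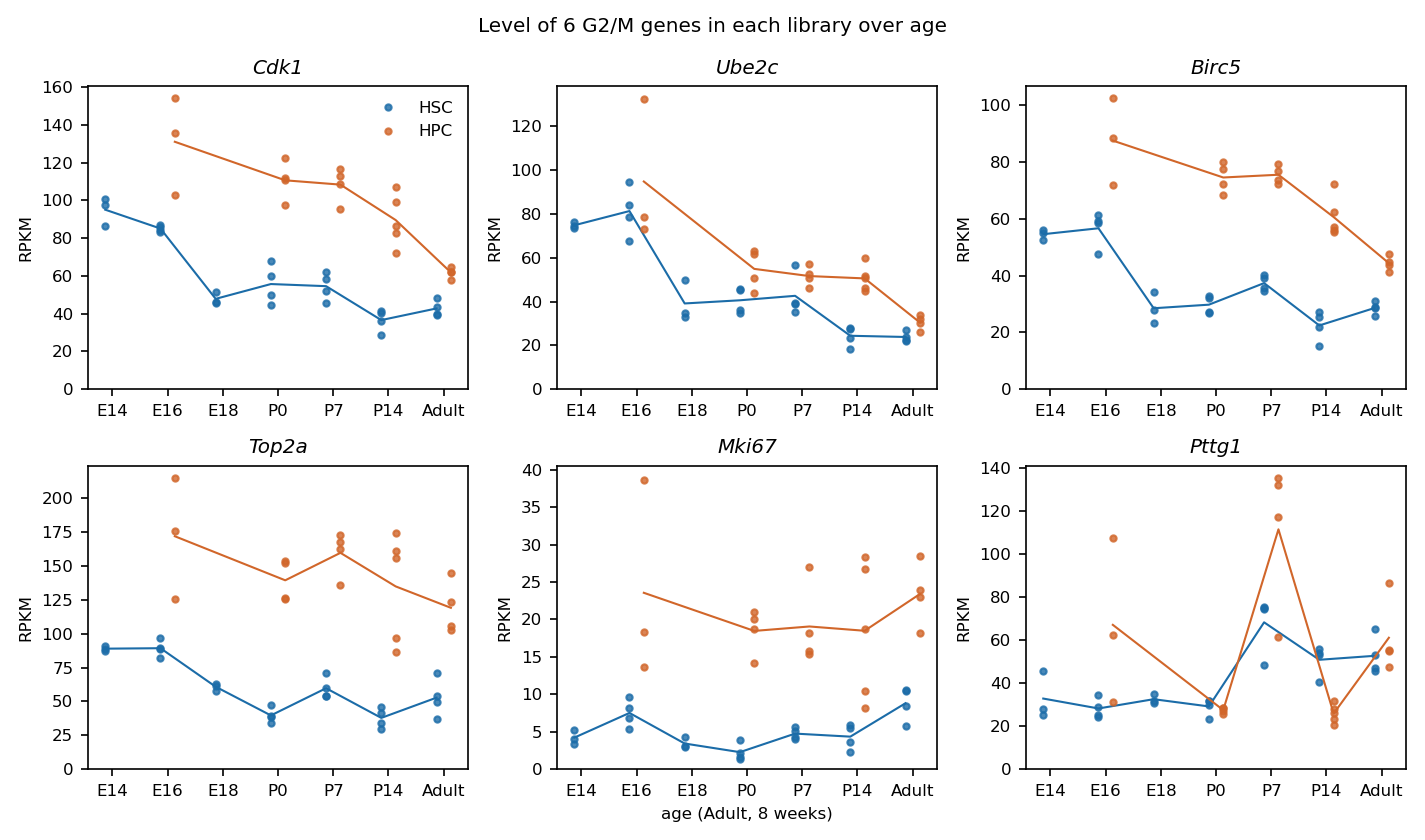
RPKM of Cdk1, Ube2c, Birc5, Top2a, Mki67 and Pttg1 in every age library (points; HSC blue, HPC orange; lines join the group means) against age. Cdk1 in HSC sits between 83.1 and 101 RPKM at E14 and E16 and between 28.5 and 68.1 RPKM at all later ages; Pttg1 peaks at P7 in both cell types.

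Between neighbouring ages, most calls in HSC were at the step from E16 to E18 and the step from P7 to P14. Between E14 and E16, 0 genes were called by limma, 2 had an unadjusted p under 0.05, and 0.0523% of all genes were called. From E16 to E18, 19 genes were lower and 0 higher, against 5.47% of all genes called, 2.99% as lower and 2.47% as higher. Ube2c measured 33.2, 49.7 and 34.7 RPKM at E18, against 94.7, 78.8, 84.2 and 67.7 RPKM at E16, and Aurkb 26.4, 34.3 and 41.8 RPKM at E18, against 74.0, 72.3, 88.0 and 72.6 RPKM at E16. Neither overlapped. The log2 fold change was -1.09 ± 0.17 for Ube2c (limma, adjusted p = 0.000122) and -1.21 ± 0.21 for Aurkb (limma, adjusted p = 0.000717), and Birc5, Ccnb2 and Tacc3 fell by 1.02 to 1.08. Of the S phase genes, 15 of 33 were lower. The progenitor marker sum was 205 to 220 RPKM at E18, against 328 to 436 RPKM at E16, with 3 of 4 lower, and its part in the result was not tested. The count was 12 with no filter on low values and 11 without E18 replicate 1.

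From E18 to P0, Top2a (-0.60 ± 0.16, limma, adjusted p = 0.0315) and Anln (-0.99 ± 0.28, limma, adjusted p = 0.0351) were lower, with 4.81% of all genes called, 1.82% as lower and 3% as higher. With no filter on low values 0 members were called lower, likewise without E18 replicate 1, E18 replicate 3, P0 replicate 2 or P0 replicate 4, and 1 without E18 replicate 2 or P0 replicate 3. From P0 to P7, Pttg1, Top2a and Mki67 were higher, with 5.9% of all genes called, 3.07% as higher and 2.83% as lower. Pttg1 measured 74.2, 48.3, 74.7 and 75.4 RPKM at P7, against 31.5, 23.4, 29.6 and 31.9 RPKM at P0 (log2 fold change 1.21 ± 0.17, limma, adjusted p = 4.97e-05). Mki67 measured 4.28, 3.97, 5.06 and 5.66 RPKM at P7, against 3.95, 1.65, 1.31 and 2.14 RPKM at P0 (1.01 ± 0.27, limma, adjusted p = 0.0231). Every P7 library was above every P0 library for both genes. Of the S phase genes, 9 of 33 were also higher. The letters that open the library titles differ between E18 and P0 and between P0 and P7. At both steps, letters and age cannot be told apart.

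From P7 to P14, 18 of the 36 genes fell in HSC and 0 rose, against 1.71% of all genes called, 1.08% as lower and 0.636% as higher. All 36 log2 fold changes were negative, with a median of -0.70. Birc5 measured 27.0, 25.5, 15.3 and 21.9 RPKM at P14, against 39.2, 35.4, 34.7 and 40.1 RPKM at P7 (-0.75 ± 0.14, limma, adjusted p = 0.00493). Ube2c measured 23.5, 27.7, 18.3 and 28.1 RPKM at P14, against 39.0, 39.6, 35.2 and 56.9 RPKM at P7 (-0.79 ± 0.15, limma, adjusted p = 0.00569). Neither gene overlapped between the ages. Ccnb2 and Ccna2 were next by adjusted p, and Gtse1 had the lowest log2 fold change (-1.09). Of the other G2/M genes 34 of 81 were lower, with Ncapd2, Cdkn3, Cdca3 and Spc25 leading, and of the S phase genes 8 of 33. The sum of progenitor markers was 191 to 229 at P14 and 234 to 274 at P7, with 0 of 4 called. The count of members was 5 with no filter on low values, 5 without P7 replicate 1, 11 without P7 replicate 4, 8 without P14 replicate 1 and 6 without P14 replicate 3.

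From P14 to 8 weeks, Mki67 (1.0 ± 0.27, limma, adjusted p = 0.0253) and Ccna2 (0.68 ± 0.20, limma, adjusted p = 0.0360) were higher and 0 genes lower, with 5.3% of all genes called, 2.31% as higher and 2.99% as lower. The count was 0 with no filter on low values and without P14 replicate 1, P14 replicate 3 or adult replicate 3, and 1 without adult replicate 2 or 4. Titles of P14 and adult HSC libraries open with different letters, so letters and age cannot be told apart at this step. Adult and P0 HSC, whose titles open with the same letter, differed in 12 members. Of these 9 were lower in adults, among them Cenpa (-1.55 ± 0.16, limma, adjusted p = 5.87e-08), Cdc25c, Kif2c and Ccnb1. Higher were Mki67 (1.83 ± 0.27, limma, adjusted p = 1.19e-05), Pttg1 (0.87 ± 0.17, limma, adjusted p = 0.000449) and Cenpf (0.85 ± 0.26, limma, adjusted p = 0.0193). Of all genes, 10.5% were lower and 10.7% higher in that comparison. Cenpa measured 16.4, 13.9, 21.8 and 17.8 RPKM in adults, against 50.7, 40.0, 76.9 and 48.4 RPKM at P0, with no overlap. More than 100 reads of Y-linked genes were found in 0 of the 4 adult and in 4 of the 4 P0 HSC libraries, so sex and age cannot be told apart here either. Longer members were relatively higher in adults: Spearman's rho between log2 fold change and exon length over the 36 genes, which share their libraries, was 0.53 for adult over P0 HSC, 0.52 for adult over P14, 0.33 for adult over E16 and -0.60 for P0 over E18. The part of length in these age results was not tested.

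In HPC, 27 of the 36 genes were lower in adults than at E16 and 0 were higher, with a median log2 fold change of -0.98 against 0.05 for all 14754 genes tested. Of those genes, 27% were called, 12% as lower and 14.9% as higher. The sum of the members' RPKM averaged 2198 ± 470 at E16, 1800 ± 31.5 at P0, 1879 ± 96.1 at P7, 1481 ± 167 at P14 and 1257 ± 108 in adults (SD over 3 to 5 libraries). The lowest age was the adult for 26 genes. Ccnb1 measured 18.4, 18.2, 18.3 and 16.9 RPKM in adult HPC, against 70.0, 65.2 and 38.7 RPKM at E16 (-1.84 ± 0.18, edgeR, adjusted p = 1.84e-07). Ube2c measured 31.9, 33.9, 30.0 and 26.1 RPKM in adult HPC, against 133, 72.9 and 78.8 RPKM at E16 (-1.77 ± 0.18, edgeR, adjusted p = 3.46e-07). The adult and E16 libraries of both genes stood apart. Spearman's rho between log2 fold change and exon length was 0.47 in this comparison, with a median log2 fold change of -0.37 for the 9 longest members and -1.01 for the 9 shortest, and the part of length was not tested. Each HPC age has its own opening letter in the library titles, so letter and age cannot be told apart. More than 100 reads of Y-linked genes were found in 3 of 3 HPC libraries at E16, 4 of 4 at P0 and 4 of 4 at P7. At P14 they were found in 1 of 5 and in adults in 3 of 4, and the part of sex was not tested.

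All 6 genes of the cyclin and CDK group and all 5 of the mitotic kinase group were lower in adult HPC. So were 7 of 9 checkpoint and kinetochore genes, 5 of 9 spindle genes, Ect2 and Top2a. Cdc25c (-1.38 ± 0.14) and Kif2c (-1.54 ± 0.16) were among the 4 smallest adjusted p-values. The 27 genes were all among the 32 that fell in HSC. Anln, Dlgap5, Hjurp, Kif11 and Kif23 were called in HSC and not in HPC, where Hjurp had the highest log2 fold change (0.23 ± 0.18). The test of the difference between the cell types' age changes called 0 members by limma, with 1 positive and 4 negative differences at an unadjusted p under 0.05 and 4.19% of all genes called, 1.99% with positive and 2.2% with negative differences. The smallest p was that of Pttg1, whose change was 1.01 ± 0.36 higher in HSC on the log2 scale (limma, adjusted p = 0.105). Of the other G2/M genes 45 of 81 were lower in adult HPC, with Kif20a, Ccnf, Cdca3 and Melk leading, and Cdkn1a (p21, an inhibitor of CDKs) and Wee1 (which inhibits CDK1) rose by 1.37 ± 0.27 and 0.54 ± 0.16. Of the S phase genes 13 of 33 were lower.

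Between neighbouring HPC ages, most calls were between P14 and 8 weeks: in adults 22 genes were lower and 2 higher, with 29% of all genes called, 14.1% as lower and 14.9% as higher. Aurkb measured 56.0, 56.5, 46.9 and 43.4 RPKM in adult HPC, against 67.1, 70.6, 83.9, 81.7 and 70.1 RPKM at P14, with no overlap (-0.79 ± 0.13, edgeR, adjusted p = 0.000276). Pttg1 (0.99 ± 0.27, edgeR, adjusted p = 0.00868) and Hjurp (0.42 ± 0.15, edgeR, adjusted p = 0.0434) were the higher ones; only 1 gene was called higher with DESeq2, with no filter, or without any one of adult replicates 1, 3 and 4 and P14 replicates 1, 2, 3 and 5. The P14 HPC libraries were uneven: Kif11 measured 13.4 and 11.6 RPKM in replicates 1 and 2, and 25.1, 31.9 and 30.0 RPKM in replicates 3 to 5. The sum of 6 neutrophil markers ran from 398 to 3638 RPKM in the P14 HPC libraries and from 169 to 288 RPKM in the adult ones, and its part in the result was not tested. For adult over P14 HPC, rho with exon length was 0.52, with medians of -0.08 for the 9 longest members and -0.53 for the 9 shortest, and the part of length was not tested. Of the S phase genes, 16 of 33 were lower.

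The earlier HPC steps held few calls. From E16 to P0, Ube2c (-0.79 ± 0.18), Pttg1 (-1.28 ± 0.30) and Ccna2 (-0.77 ± 0.21) were lower, with edgeR adjusted p-values of 0.0186, 0.0202 and 0.0400 and 3.29% of all genes called, 0.685% as lower and 2.6% as higher. That count was 0 without E16 replicate 1, without P0 replicate 2 or without P0 replicate 3, and 7 without E16 replicate 3. From P0 to P7 only Pttg1 was higher, with 1.48% of all genes called, 0.569% as higher and 0.908% as lower. It measured 61.5, 132, 117 and 135 RPKM at P7, against 27.1, 25.5, 28.5 and 28.6 RPKM at P0 (2.00 ± 0.29, edgeR, adjusted p = 0.000450). At P14 it measured 31.5, 27.7, 25.9, 20.5 and 23.4 RPKM, so that it was lower than at P7 (-1.97 ± 0.27, edgeR, adjusted p = 0.000163). The genes Dlgap5, Kif20b, Ndc80, Bub1 and Cdc25c were also lower at P14 than at P7, by 0.39 to 0.63 on the log2 scale, with 9.88% of all genes called, 5.06% as lower and 4.83% as higher. The count of lower members was 6, and 3 without P7 replicate 1.

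Set against HPC of the same age on one RPKM scale, HSC had lower G2/M levels at each of the 5 shared ages. Lower in HSC were 20 genes at E16, 31 at P0, 31 at P7, 35 at P14 and 29 in adults, with median log2 fold changes of -0.62, -1.15, -0.93, -1.49 and -0.74. Of all 14111 genes tested, 23.3% were called at E16, 39.2% at P0, 41.9% at P7, 37.4% at P14 and 29% in adults, and 10.4%, 18.7%, 22.1%, 19% and 15.3% as lower. Those called higher were 12.9% at E16, 20.5% at P0, 19.9% at P7, 2608 genes at P14 and 13.8% in adults. In all, 19 genes were lower at all 5 ages, and 27 at the 4 postnatal ages. The 19 cannot exceed the E16 count, which depended on single libraries, as given further below. The letters that open the library titles also differ between HSC and HPC at every age, so they and cell type cannot be told apart. In adults, more than 100 reads of Y-linked genes were found in 0 of the 4 HSC and in 3 of the 4 HPC libraries. The part of sex was not tested.

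**Figure D3:**
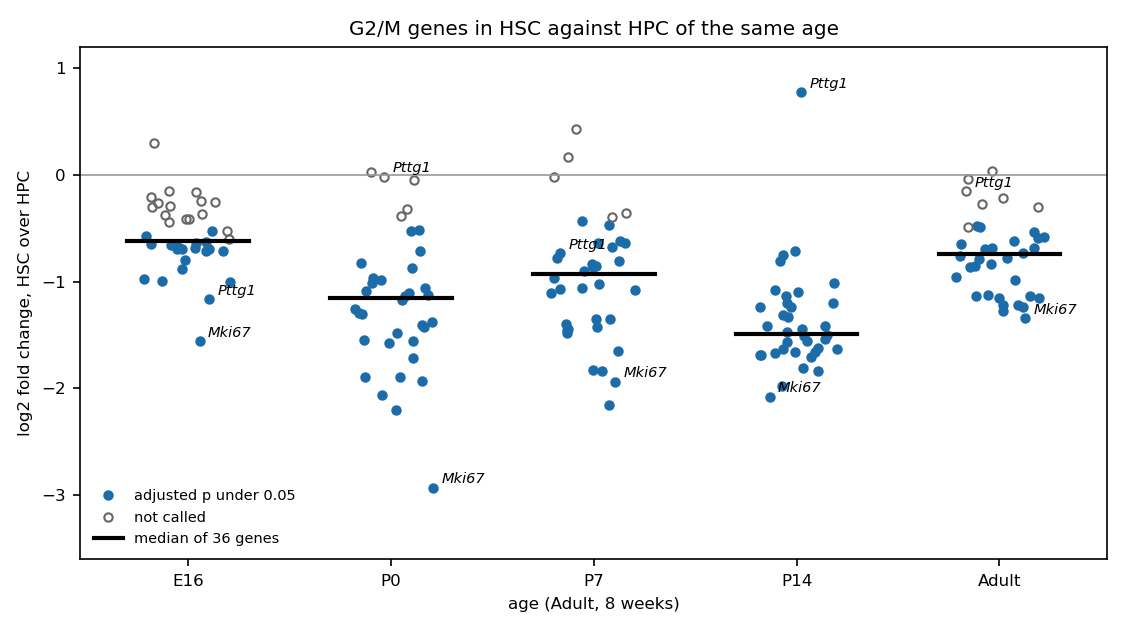
Log2 fold change of HSC over HPC for the 36 genes at each of the 5 shared ages (points; filled where called; bar, median). The median is -0.62 at E16 and -1.49 at P14; Mki67 is the lowest gene at E16, P0, P14 and in adults, and Pttg1 the one gene called higher, at P14.

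At P14 Top2a measured 33.9, 45.8, 30.0 and 41.7 RPKM in HSC, against 97.0, 86.4, 161, 174 and 156 RPKM in HPC (-1.98 ± 0.17, limma, adjusted p = 7.79e-12). Birc5 measured 27.0, 25.5, 15.3 and 21.9 RPKM in HSC, against 72.1, 62.5, 56.9, 55.3 and 56.0 RPKM in HPC (-1.63 ± 0.13, limma, adjusted p = 1.20e-12). Cdk1 measured 40.6, 41.5, 28.5 and 36 RPKM in HSC, against 107, 99.3, 86.4, 72.3 and 82.9 RPKM in HPC. Every HSC library lay below every HPC library for these 3 genes. Pttg1 went the other way, at 53.0, 53.8, 40.4 and 55.9 RPKM in P14 HSC, against 31.5, 27.7, 25.9, 20.5 and 23.4 RPKM in P14 HPC (0.78 ± 0.23, limma, adjusted p = 0.00685). At E16 it was lower in HSC (-1.16 ± 0.26, limma, adjusted p = 0.00111), where the E16 HPC libraries measured 107, 31.3 and 62.4 RPKM.

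Mki67 showed the widest gap, with 3.95, 1.65, 1.31 and 2.14 RPKM in P0 HSC, against 21, 14.1, 18.7 and 20.05 RPKM in P0 HPC (-2.93 ± 0.31, limma, adjusted p = 1.27e-09). In adults it measured 10.5, 8.41, 10.6 and 5.72 RPKM in HSC, against 28.5, 18.1, 23.0 and 23.9 RPKM in HPC, and the 2 cell types did not overlap at either age. Plk1 was the highest member in HSC relative to HPC at E16, P7 and in adults, with log2 fold changes of 0.30, 0.43 and 0.03 that did not pass. Of the other G2/M genes, 20 of 81 were lower in HSC at E16, 60 at P0, 54 at P7, 70 at P14 and 46 in adults. Of 33 S phase genes, 8, 26, 21, 26 and 12 were lower at those ages. Foxm1 (-1.09 ± 0.23 at P0, -1.34 ± 0.21 at P14) and Mybl2 (-0.92 ± 0.26 and -1.03 ± 0.25) were lower in HSC as well.

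Longer members tended to be lower in HSC relative to HPC. Across the 36 genes, which share their libraries, Spearman's rho between the log2 fold change and the exon length was -0.43 at E16, -0.68 at P0, -0.59 at P7, -0.53 at P14 and -0.67 in adults. With the libraries' own length trend as a covariate, 11 genes were lower at E16 in place of 20. The E16 count was also 6 without HPC E16 replicate 1 and 10 without HPC E16 replicate 2.

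At P0, no G2/M gene was called between HSC labelled Ifnar -/- and wild type HSC. edgeR's quasi-likelihood test called 0 members, DESeq2 called 0, and 2 had an unadjusted p under 0.05, with 1.15% of all 16224 genes called, 0.937% as lower and 0.21% as higher. The log2 fold changes were negative for 34 of 36 genes, with a median of -0.40. Ube2c measured 10.1, 11.9, 19.6 and 10.1 RPKM in Ifnar -/- HSC and 11.1, 12.1, 13.5, 33.2 and 41.5 RPKM in wild type HSC (-0.82 ± 0.40, edgeR, adjusted p = 0.563). Plk1 measured 17.8, 19.1, 30.4 and 21.5 RPKM in Ifnar -/- HSC and 23.8, 25.9, 22.8, 48.4 and 62.2 RPKM in wild type HSC (-0.75 ± 0.31, edgeR, adjusted p = 0.479). The groups overlap, and wild type replicates 4 and 5 stand above the rest.

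The summed RPKM of the 36 genes was 630, 695, 830 and 527 in Ifnar -/- HSC, and 572, 651, 627, 1139 and 1278 in wild type HSC. Without wild type replicates 4 and 5, again 0 members were called by edgeR. Cdk1 measured 27.1, 36.1, 31.0 and 20.1 RPKM in Ifnar -/- HSC and 22.2, 32.2, 23.5, 41.6 and 43.2 RPKM in wild type HSC. Mki67 had the highest log2 fold change (0.35 ± 0.22, edgeR, adjusted p = 0.670), and its values, 6.15, 4.90, 7.09 and 4.69 RPKM in Ifnar -/- HSC and 4.21, 4.67, 5.37, 2.28 and 6.02 RPKM in wild type HSC, overlap too. Of the other G2/M and S phase genes, 0 were called.

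In P0 HPC, 2 members were higher and 1 lower in Ifnar -/- than in wild type, with 10.8% of all 12988 genes called, 5.2% as higher and 5.58% as lower. Taken in both directions, calls were no more common among the members than among all genes tested. Ccna2, cyclin A2, measured 19.8, 25.1, 29.2 and 23.8 RPKM in Ifnar -/- HPC, against 12.3, 12.8, 13.2 and 14.54 RPKM in wild type HPC (0.82 ± 0.14, edgeR, adjusted p = 0.00164). Hjurp measured 46.3, 50.01, 43.6 and 46.8 RPKM in Ifnar -/- HPC, against 27.4, 28.9, 25.6 and 35.5 RPKM in wild type HPC (0.61 ± 0.11, edgeR, adjusted p = 0.00247). The groups did not overlap for either gene. Pttg1 measured 16.2, 17.2, 21.9 and 24.5 RPKM in Ifnar -/- HPC, against 35.6, 28.9, 33.9 and 22.5 RPKM in wild type HPC, which overlap (-0.67 ± 0.18, edgeR, adjusted p = 0.0297).

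The other members of P0 HPC had log2 fold changes of -0.04 to 0.70, and the median of all 36 was 0.18 against 0.01 for all genes tested. Mki67 measured 9.12, 12.0, 23.2 and 27.1 RPKM in Ifnar -/- HPC and 7.19, 12.1, 7.24 and 15.5 RPKM in wild type HPC, which overlap. Of the other G2/M genes 14 of 81 were higher, with Fam83d (1.57 ± 0.24), Pkmyt1 (1.63 ± 0.29), E2f7 (0.84) and Nek2 (1.02) leading, while 4 of 33 S phase genes, Gins2, Rrm2, Gins1 and Tyms, were lower by 0.40 to 0.62. The sum of 5 erythroid markers was 87.1 to 315 RPKM in Ifnar -/- HPC and 20.4 to 37.7 RPKM in wild type HPC, with 3 of the 4 tested higher (Car1, Klf1 and Epor). The progenitor marker sum was 598 to 849 RPKM in Ifnar -/- HPC and 1294 to 1438 RPKM in wild type HPC, with 3 of 4 lower. Their part in the result was not tested. DESeq2 called 5 members higher, 4 were higher without wild type replicate 4 or Ifnar -/- replicate 1, and the Pttg1 call was lost without any one of wild type replicates 1, 2 and 3 and Ifnar -/- replicates 1 and 2.

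**Figure D4:**
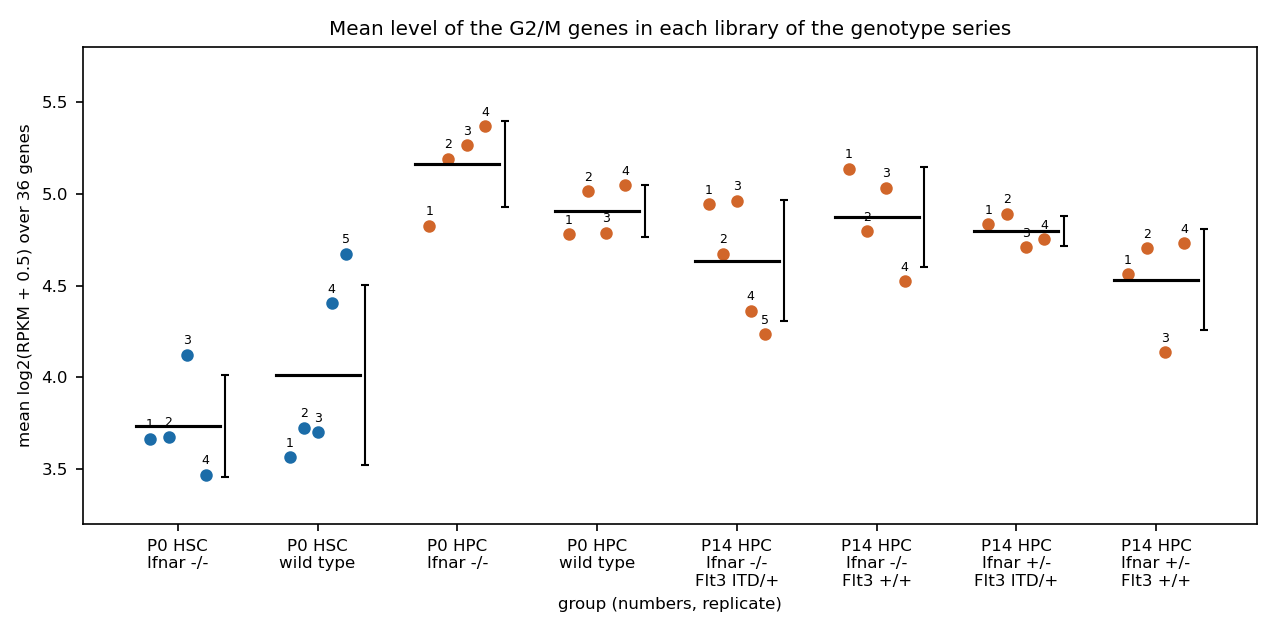
Mean log2(RPKM + 0.5) over the 36 genes in each genotype library (points with replicate numbers; bar, group mean; error bar, SD), mutant groups left of their controls. P0 Ifnar -/- HSC average 3.73 and wild type HSC 4.01, with wild type replicates 4 and 5 above the others.

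In P14 HPC the genotype comparisons gave 1 call by edgeR. In Flt3 +/+ mice, Ifnar -/- HPC had lower Cdk1 than Ifnar +/- HPC, at 59.8, 49.9, 58.0 and 49.3 RPKM in Ifnar -/-, against 84.5, 46.9, 96.5 and 82.0 RPKM in Ifnar +/- (-0.74 ± 0.20, edgeR, adjusted p = 0.0452). The groups overlap through replicate 2 of the Ifnar +/- group, and 4.77% of all 17464 genes were called, 3.56% as lower and 1.21% as higher. DESeq2 called 5 members higher and 6 lower in this comparison. Shares of all genes called, here and below, are from the main edgeR fit and were not computed for other fits. With the length trend as a covariate, or without any one of the other 7 libraries, 0 were called lower, and without Ifnar +/-, Flt3 +/+ replicate 2 there were 8 higher and 6 lower.

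The members parted by length in that comparison. Ect2, in Flt3 +/+ mice, measured 27.3, 19.8, 22.6 and 16.4 RPKM in Ifnar -/- HPC and 5.97, 19.8, 2.28 and 12.2 RPKM in Ifnar +/- HPC, the highest log2 fold change (0.96 ± 0.39, edgeR, adjusted p = 0.112). Birc5 measured 50.5, 37.4, 47.0 and 32.4 RPKM in Ifnar -/- HPC and 66.9, 34.7, 82.6 and 64.1 RPKM in Ifnar +/- HPC, the lowest one (-0.81 ± 0.23, edgeR, adjusted p = 0.0507). Both overlap through replicate 2. Spearman's rho between log2 fold change and exon length over the 36 genes was 0.61 here and 0.52 for Flt3 ITD/+ over Flt3 +/+ in Ifnar +/- mice, which shares the Ifnar +/-, Flt3 +/+ libraries. In the comparisons without those libraries it was negative, -0.72 for Flt3 ITD/+ over Flt3 +/+ in Ifnar -/- mice and -0.58 for Ifnar -/- over Ifnar +/- in Flt3 ITD/+ mice. These share the Ifnar -/-, Flt3 ITD/+ libraries, so a trend with length was not limited to comparisons with the Ifnar +/-, Flt3 +/+ group. Within the Ifnar +/-, Flt3 +/+ libraries the correlation of level with length over all genes was -0.30, -0.15, -0.34 and -0.26, while it was -0.14 to -0.26 in the other P14 genotype libraries, and its part in the result was not tested beyond the covariate.

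**Figure D5:**
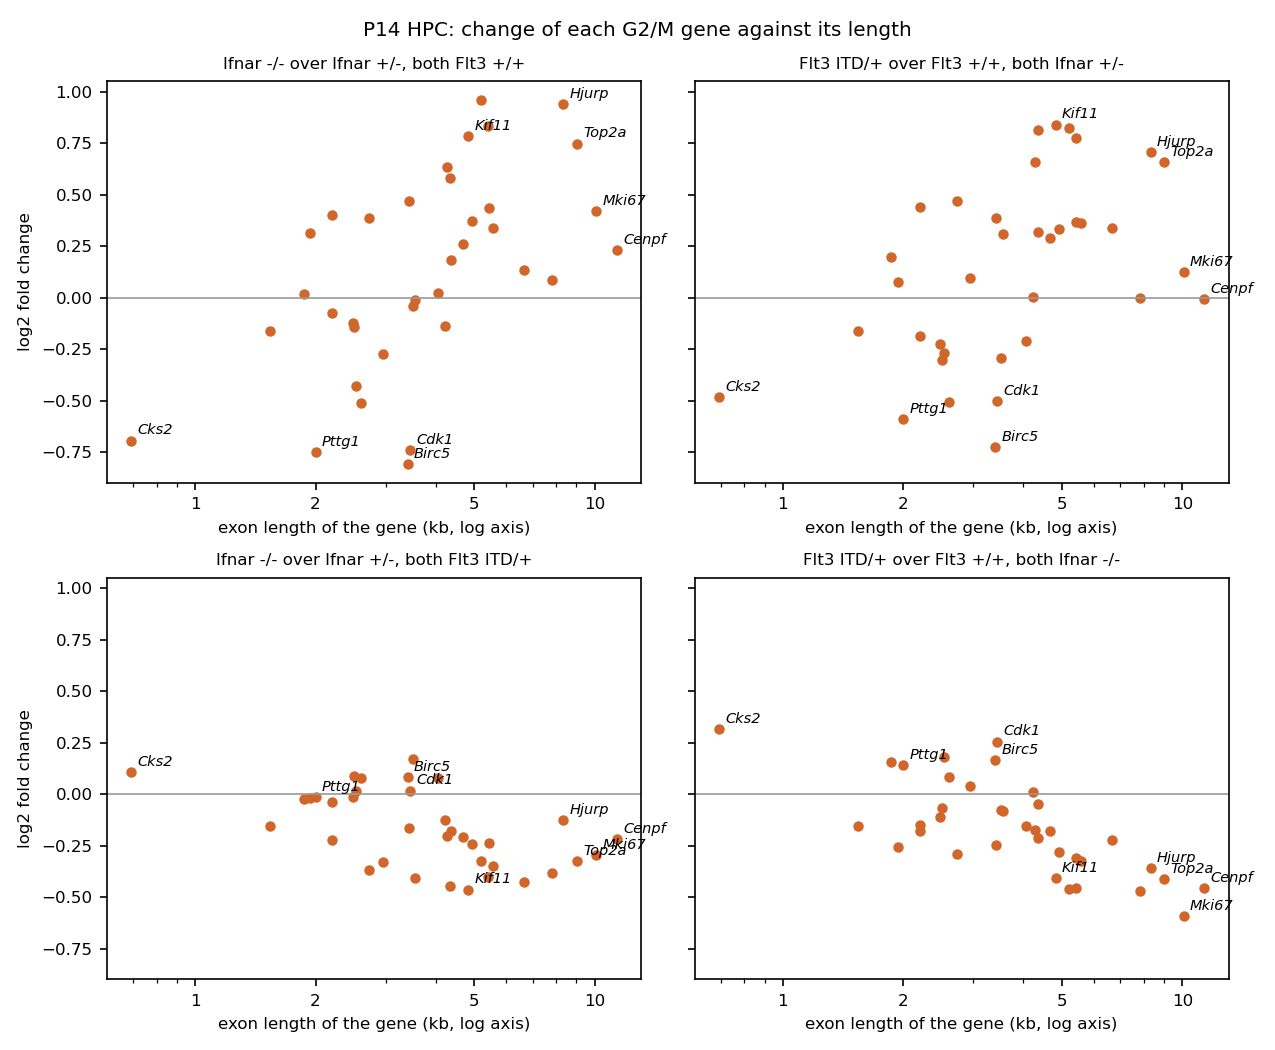
Log2 fold change of each of the 36 genes (points) against its exon length in kilobases (log axis) in P14 HPC; left, Ifnar -/- over Ifnar +/- in Flt3 +/+ (top) and Flt3 ITD/+ mice (bottom); right, Flt3 ITD/+ over Flt3 +/+ in Ifnar +/- (top) and Ifnar -/- mice (bottom). The top panels share the Ifnar +/-, Flt3 +/+ libraries, with Spearman's rho of 0.61 and 0.52, and the bottom panels do not use them, with -0.58 on the left and -0.72 on the right.

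For Flt3 ITD/+ against Flt3 +/+ in Ifnar +/- HPC, edgeR called 0 members, with 10 higher and 5 lower at an unadjusted p under 0.05 and 5.12% of all genes called. DESeq2 called 3 higher and 2 lower. Kif11 measured 22.5, 23.5, 16.8 and 17.5 RPKM in Flt3 ITD/+ HPC and 8.25, 18.52, 5.36 and 11.3 RPKM in Flt3 +/+ HPC (0.84 ± 0.26, edgeR, adjusted p = 0.0604), again overlapping through replicate 2. This comparison shares its Flt3 +/+ libraries with the one above. Without that replicate, edgeR called 10 higher and 7 lower. Cdkn1a rose by 2.31 ± 0.27 in Flt3 ITD/+ over Flt3 +/+ HPC of Ifnar +/- mice (edgeR, adjusted p = 9.60e-05) and by 2.19 ± 0.26 in those of Ifnar -/- mice (edgeR, adjusted p = 9.24e-05).

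In the comparisons that do not use the Ifnar +/-, Flt3 +/+ group, edgeR called 0 members. For Flt3 ITD/+ against Flt3 +/+ in Ifnar -/- HPC, DESeq2 too called 0, 0 had an unadjusted p under 0.05, and 0.956% of all genes were called. For Ifnar -/- against Ifnar +/- in Flt3 ITD/+ HPC, DESeq2 called 1 lower, as did edgeR with only the groups compared in the fit, 2 had an unadjusted p under 0.05, and 4.07% of all genes were called. Kif11 measured 17.4, 16.9, 20.3, 11 and 9.25 RPKM in Ifnar -/-, Flt3 ITD/+ HPC and 22.5, 23.5, 16.8 and 17.5 RPKM in Ifnar +/-, Flt3 ITD/+ HPC (-0.46 ± 0.24, edgeR, adjusted p = 0.307), the lowest member and overlapping. Cdkn1a fell by 1.21 ± 0.24 there (edgeR, adjusted p = 0.00707).

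Ifnar -/-, Flt3 ITD/+ HPC against Ifnar +/-, Flt3 +/+ HPC gave 0 calls by edgeR, with 1 higher and 4 lower at an unadjusted p under 0.05 and 1.87% of all genes called. The test of whether the Flt3 ITD/+ effect differed between Ifnar -/- and Ifnar +/- mice gave 0 calls by edgeR, with 6 positive and 11 negative differences at an unadjusted p under 0.05 and 0.0115% of all genes called. DESeq2 called 2 positive and 4 negative. Kif11 had the smallest p (-1.25 ± 0.35, edgeR, adjusted p = 0.0855). Without Ifnar +/-, Flt3 +/+ replicate 2, edgeR called 4 higher and 6 lower in the first of these and 6 positive and 11 negative differences in the second. Replicate 1 of that group had a neutrophil marker sum of 2777 RPKM, against 57.5 to 70.6 RPKM in its other 3 libraries.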

How the data were processed

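RNA from HSC and HPC was extracted with a Qiagen micro plus kit and made into libraries with a Clontech kit, per the labels. STAR, listed as 3.0.4, and featureCounts 1.4.5 from Subread were the tools named in the submitters' processing notes. Neither the build of the genome, the strand setting nor the treatment of reads with several matches is given in the sources used here. The authors deposited raw read counts per gene for HPC ages and all genotype libraries, and for HSC ages they deposited RPKM, although count tests had been planned for counts. Whole reads were recovered from these RPKM, with an exon length for 25622 of 25622 detected genes, 16638 from GENCODE M21 and 8984 found from the values. A length was kept only if it made every value whole within 1e-05, so that wholeness is no check. The recovered reads came to at least 99.9985% of each library's total. Not used were 2 rows that are not mouse genes (at most 0.000144% of a library's reads) and 1 column of values.

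Counts were tested with edgeR 4.0.16 (quasi-likelihood test, TMM factors, default filter) in R 4.3.3, with one fit per set of libraries. For HSC ages, and for HSC with HPC, limma 3.58.1 with a robust trend was run on the log2 of RPKM scaled by TMM plus 0.5. Genes had to exceed 1 RPKM in at least 3 libraries. Fold changes on that scale understate those of low genes. All tests are two-sided, p-values were adjusted by Benjamini-Hochberg over all genes tested, and calls were made under 0.05. Alternatives were DESeq2 1.42.0 and its size factors, no filter, pseudocounts of 0.1 and 1, no TMM scaling, edgeR on the recovered reads, only the groups compared, a replicate block and each library left out. For these alternatives only members were counted, and the share of all genes called was not computed. Levels are RPKM from the deposited counts with the same exon lengths.

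On simulated counts for adult against E16 HSC (11096 genes), 53.7% of 2-fold and 88.2% of 4-fold changes were recovered, and for P14 Ifnar -/- against Ifnar +/- in Flt3 +/+ (15989 genes) 8.08% and 75%. No 2 libraries of a group differed by as little as sampling noise. The members, lists and tests were chosen with earlier results of these data known. Every member was counted, and 2 of the marker genes planned are not reported here. Values per library were given for 13 genes that lead their roles, and further names were the 4 smallest adjusted p-values, the extremes and called members of opposite direction in each comparison; of the other lists, up to 4 called genes and Foxm1, Mybl2, Cdkn1a and Wee1. Counts of 5 or fewer called members were named after their values were seen, as were values of Pttg1, Hjurp, Ccna2 and Cenpa in every library.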

Additional observations from a re-analysis of the deposited data

Results flagged for a closer look

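In 11 of 238 tests, over the 13 genes that lead their roles and the mean level of the 36 genes in each group of 4 or 5 libraries, 1 library stood apart from the others by Dixon's test, and chance flags about 1 in 20. No explanation was tested. Cdc20 measured 27.0 RPKM in adult HPC replicate 2 (17.5 to 18.9 in the others), 15.9 RPKM in P7 HPC replicate 1 (25.9 to 27.4), 43.9 RPKM in E16 HSC replicate 1 (28.1 to 29.8) and 26.7 RPKM in P0 wild type HSC replicate 5 (13.7 to 17.2). Ect2 measured 26.7 RPKM in adult HPC replicate 1 (19.2 to 19.6), 36.1 RPKM in P0 HPC replicate 2 (25.1 to 26.4) and 28.0 RPKM in P7 HPC replicate 4 (34.2 to 35.3). Plk1 measured 15.3 RPKM in adult HSC replicate 1 (31.1 to 32.0), 86.3 RPKM in P0 Ifnar -/- HPC replicate 2 (67.6 to 70.3) and 45.5 RPKM in P14 Ifnar +/-, Flt3 ITD/+ HPC replicate 4 (56.2 to 58.0). Aurkb measured 88.0 RPKM in E16 HSC replicate 3 (72.3 to 74.0).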

How the results depend on the processing

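No value of a member called in the main fit reversed (4379 of 4379 gene values kept their direction), though some calls were lost. With each library left out in turn, 2113 of 2403 such values were still called and 290 were not. Members not called in the main fit and genes that are not members were not checked in this way. Of the counts of called members, 101 of 812 alternative values differed from the main one by more than 1.5 times; the rest kept within it, and among all alternatives run the counts of 32 and 27 genes lower in adult than E16 HSC and HPC did. The cause of the differences was not tested. With no filter on low values or counts, lower members were 12 (E18 against E16 HSC), 0 (P0 against E18 HSC), 5 (P14 against P7 HSC) and 2 (P14 Ifnar -/- in Flt3 +/+), and higher ones 0 (adult against P14 HSC) and 1 (adult against P14 HPC). DESeq2 gave 1 higher (adult against P14 HPC), 5 higher (P0 Ifnar -/- HPC), 3 higher and 2 lower (Flt3 ITD/+ in Ifnar +/-), 5 higher and 6 lower (Ifnar -/- in Flt3 +/+), 1 lower (Ifnar -/- in Flt3 ITD/+) and 2 positive and 4 negative differences of the Flt3 ITD/+ effect; its size factors alone gave 1 higher (adult against P14 HPC), and 1 higher and 3 lower (Ifnar -/- in Flt3 +/+). edgeR on recovered reads gave 1 higher for adult against P14 HSC. With only the groups compared in the fit, the counts were 0 lower (P0 against E18 HSC), 0 higher (adult against P14 HSC), 0 lower (P0 against E16 HPC), 2 higher and 2 lower (P7 against P0 HPC), 1 higher (adult against P14 HPC; HSC against HPC at P7), 0 lower (Ifnar -/- in Flt3 +/+) and 1 lower (Ifnar -/- in Flt3 ITD/+); this fit was not run for the difference of Flt3 ITD/+ effects.

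Replicate numbers did not pair the libraries: correlations of same-numbered libraries ran from -0.43 to 0.46, and no comparison had all above 0.1. The fit with the replicate block gave 0 lower and 1 higher (P0 against E18 HSC), 1 higher and 1 lower (adult against P14 HSC), 1 lower (P0 against E16 HPC), 1 higher (adult against P14 HPC), 0 lower (P0 Ifnar -/- HPC), 1 higher (Flt3 ITD/+ in Ifnar +/-), and 2 higher and 4 lower (Ifnar -/- in Flt3 +/+). Chosen after seeing the data, a covariate of each library's correlation of level with exon length gave 1 higher and 11 lower (HSC against HPC at E16), 1 higher (HSC against HPC at P7), 1 negative difference (HSC minus HPC age change) and 0 lower (Ifnar -/- in Flt3 +/+). Leaving out both Ifnar +/-, Flt3 +/+ libraries of lowest such correlation gave 0 lower for the last.

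With each replicate left out in turn, counts ran from 11 to 15 lower (E18 against E16 HSC), 0 to 3 lower and 0 to 1 higher (P0 against E18 HSC), 5 to 17 lower (P14 against P7 HSC), 0 to 3 higher and 0 to 1 lower (adult against P14 HSC), 6 to 23 lower (HSC against HPC at E16), 0 to 1 in each direction (HSC minus HPC age change), 1 to 2 higher (adult against P14 HPC), 0 to 7 lower (P0 against E16 HPC), 3 to 7 lower (P14 against P7 HPC), 2 to 4 higher and 0 to 1 lower (P0 Ifnar -/- HPC), 0 to 8 higher and 0 to 6 lower (Ifnar -/- in Flt3 +/+), 0 to 10 higher and 0 to 7 lower (Flt3 ITD/+ in Ifnar +/-), 0 to 4 higher and 0 to 6 lower (Ifnar -/-, Flt3 ITD/+ against Ifnar +/-, Flt3 +/+), and 0 to 6 positive and 0 to 11 negative differences of the Flt3 ITD/+ effect. The P14 simulation, which recovered 8.08% of 2-fold changes, used only the Ifnar -/-, Flt3 +/+ and Ifnar +/-, Flt3 +/+ groups. The fit of all P14 genotype groups together was not simulated, so how many 2-fold changes it would miss was not tested.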
